A study of Homo sapiens with 6 samples.

Results

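Complex I (NADH:ubiquinone oxidoreductase) is the entry point of electrons from NADH into the mitochondrial respiratory chain, and it pumps protons across the inner membrane while it passes those electrons to ubiquinone. It is L-shaped: a peripheral arm in the matrix carries the flavin, the iron-sulfur clusters and the ubiquinone site, and a membrane arm carries the pumps. A core of catalytic subunits is conserved from bacteria, with part of it encoded in the nucleus and the pumping part in mitochondrial DNA, and many accessory subunits, all nuclear, surround that core. Naive pluripotent cells, which resemble the preimplantation epiblast, are known for more oxidative metabolism than primed cells, which resemble the postimplantation epiblast and rely more on glycolysis.

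The genes described here are the nuclear complex I subunit genes whose symbol is NDUF, 1 of the letters A, B, C, S or V, and a number. This rule takes symbols only and uses no measured value. It found 37 genes, listed under 52 gene identifiers, of 48183 symbols and 61196 identifiers in the table. By the place of the protein they are 7 core subunits, 9 accessory subunits of the peripheral arm, 9 of the proximal membrane arm, 11 of the distal membrane arm, and NDUFA4, which was first counted with complex I and is now assigned to complex IV. All 37 passed the filter on low counts, and the lowest count of a member in any library was 950.

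The RNA came from human embryonic stem cells carrying EOS, a fluorescent reporter of the OCT4 distal enhancer. The study used it as a marker of the naive state. The labels name the line H1, whereas the study's methods name H9, so the line is not settled here. The 4 naive libraries came from cells that had been converted to the naive state. VPA naive cells (1 library) were induced with valproic acid, a histone deacetylase inhibitor, in Ndiff227 medium with the MEK inhibitor PD0325901 and LIF. AICAR naive cells (2 libraries) were induced in PXGL medium, which adds XAV939 and Go6983 to those factors, with AICAR, an activator of AMP-activated protein kinase. CA-p38 naive cells (1 library) were induced in PXGL with doxycycline, which switches on a constitutively active p38 kinase in a line carrying that construct. These were then recultured in PXGL, and CD75- and SUSD2-positive cells were sorted. The study's methods give mouse embryonic fibroblast feeders for naive culture, and also describe naive culture without feeders. Its results describe a move of CA-p38 naive cells to PXGL without feeders, and long culture of AICAR naive cells without them. The feeders of the naive libraries are therefore not settled here. The untreated controls were the parental EOS primed and CA-p38 EOS primed lines (1 library each), grown without feeders in StemFit AK02N and not sorted. Cell state, medium, feeders, sorting and time in naive culture therefore cannot be told apart. The study reports karyotype abnormalities in some naive cultures, and the part of gene dosage in these values was not tested. Nothing in the labels says that the libraries came from separate cultures beyond these names, so p-values measure the spread between these 6 libraries only.

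Library totals ran from 46823699 to 54277064 counts, and TMM scaling factors from 0.936 to 1.06. The labelled states were matched by their markers: 6 of 6 naive markers (KLF17, DPPA5, DPPA3, DNMT3L, SUSD2 and TFCP2L1) rose and 5 of 5 primed markers (THY1, SFRP2, ZIC2, DUSP6 and CD24) fell in naive cells, and of 2 markers shared by both states NANOG rose (230 ± 8.71 CPM against 91.4 ± 9.34 CPM) and POU5F1 was not called. POU5F1 was 1541 ± 61.6 CPM (SD, n = 4) in naive and 1679 ± 46.7 CPM (n = 2) in primed libraries. SUSD2 was used in the sort, so its rise is no finding. Summed fibroblast markers (6 genes) were 30.8 to 72.8 CPM in naive and 175 to 192 CPM in primed libraries. COL1A1, COL1A2 and POSTN, 3 of the 6, were lower in naive cells, COL3A1 overlapped between groups, and DCN and LUM were near 0 in all libraries. Neural markers (3 genes) summed to at most 3.19 CPM in any library. The part of these cell types in the results below was not tested.

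Before the values, promoters of 5 members are shown, picked from the genes with the largest changes in either direction. NDUFA9, NDUFV1 and NDUFS7 are 3 of the 4 with the highest fold changes, and NDUFS4 and NDUFB4 fell. NDUFA12 (log2 fold change 1.57) and NDUFA5 (-0.52) lie on the minus strand and are not shown. NDUFA5 fell slightly more than NDUFB4 (-0.51). The 5 were chosen after their values were seen. The sequences are from RefSeq on GRCh38, 170 bases before to 30 after the listed start of transcription, 5′ to 3′ on the plus strand, on which all 5 genes lie. Capitals mark the letters GCGCATGCG (known as bound by NRF1, a nuclear regulator of respiratory genes) and AAGATGGC (known as bound by YY1), on either strand.

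NDUFA9, chr12:4648944-4649143: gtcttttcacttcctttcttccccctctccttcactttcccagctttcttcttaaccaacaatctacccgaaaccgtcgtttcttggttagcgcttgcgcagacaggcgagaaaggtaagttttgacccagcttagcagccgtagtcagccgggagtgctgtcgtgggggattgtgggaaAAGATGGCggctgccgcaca

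NDUFV1, chr11:67606766-67606965: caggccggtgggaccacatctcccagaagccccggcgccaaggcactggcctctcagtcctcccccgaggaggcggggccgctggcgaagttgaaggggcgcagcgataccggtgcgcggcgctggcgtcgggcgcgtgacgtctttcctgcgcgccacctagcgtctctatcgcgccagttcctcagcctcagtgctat

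NDUFS7, chr19:1383737-1383936: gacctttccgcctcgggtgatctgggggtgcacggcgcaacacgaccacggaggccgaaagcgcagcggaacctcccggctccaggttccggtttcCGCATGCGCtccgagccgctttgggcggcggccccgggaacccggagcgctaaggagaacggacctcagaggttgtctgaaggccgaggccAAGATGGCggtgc

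NDUFS4, chr5:53560469-53560668: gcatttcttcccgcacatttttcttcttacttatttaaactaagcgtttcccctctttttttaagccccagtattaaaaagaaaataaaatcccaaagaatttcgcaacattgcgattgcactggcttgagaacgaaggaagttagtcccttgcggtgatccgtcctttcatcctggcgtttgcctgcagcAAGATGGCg

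NDUFB4, chr3:120596166-120596365: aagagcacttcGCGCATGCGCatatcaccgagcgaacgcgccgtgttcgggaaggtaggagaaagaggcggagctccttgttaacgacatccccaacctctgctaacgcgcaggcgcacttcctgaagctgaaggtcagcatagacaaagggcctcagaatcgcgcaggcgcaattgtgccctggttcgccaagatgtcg

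The same letters stood in genes that rose and in genes that fell. Promoters were listed for 31 of the 37 members; those not matched included NDUFA4, NDUFB5, NDUFB9, NDUFC2 and NDUFS5. In windows of 300 bases (250 before to 50 after the start), AAGATGGC on either strand was found in 7 of the 31 (22.6%) and in 3.52% of the 27305 symbols with a listed promoter. The 7 were NDUFA3, NDUFA6, NDUFA7, NDUFA9, NDUFB8 and NDUFS7, which rose, and NDUFS4, which fell. All 7 matches began 10 to 25 bases after the start of transcription, and all 7 held an annotated ATG start codon, so the letters overlap the beginning of the coding sequence. GCGCATGCG was found in 5 members (16.1%) and in 2.34% of all symbols. Of these, NDUFA8 and NDUFS7 rose, NDUFA5 and NDUFB4 fell, and NDUFS6 was not called. The longer palindrome around these letters in NDUFB4 reads on both strands and is 1 match region. CCGGAAG, the letters of the ETS family, was found in 5 members (16.1%) and in 12.2% of all symbols. NDUFV1 held none of these 3 in its window. Another 4 sets of letters were searched: GGGCGGGG (SP factors) was in 32.3% of members and 26.1% of symbols, CCAAT in 25.8% and 39.7%, CACGTG (the E-box) in 9.68% and 8.77%, and TGACGTCA (the CRE) in 6.45% and 2.25%. The symbols with a listed promoter were not filtered by level or gene type, whereas the members are all protein-coding and passed the filter on low counts. These shares therefore compare unlike sets. A match is a description of letters only.

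Across the 37 genes, RNA was higher in naive than in primed cells for most members, and the spread among members was wide. In naive cells 22 genes rose, 4 fell and 11 were not called by edgeR's quasi-likelihood test, with p-values adjusted by Benjamini-Hochberg over the 26497 genes tested and a threshold of 0.05. The members' median log2 fold change was 0.44, with a range from -0.82 (NDUFS4) to 2.32 (NDUFA9) and an SD of 0.69 among members. NDUFA9, NDUFV1, NDUFA12, NDUFS7, NDUFA1 and NDUFB7 rose at least 2-fold, and no member fell that far.

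These counts were read against all genes, since naive and primed cells differed widely. Of all genes tested 53.1% were called, 26% higher and 27% lower, and among the 6777 genes with a mean level of at least that of the lowest member (27.9 CPM, NDUFB6) 70.9% were called, 30.6% higher and 40.3% lower. The members' share called, 70.3%, was thus close to that of genes at like levels. Their split differed in number: 59.5% of members were called higher and 10.8% lower. At least 2-fold higher were 18.6% of all genes tested and 6 of 37 members, and at least 2-fold lower were 16.7% of all genes and 0 members. Over all genes, the median log2 fold change was 0.11 under TMM scaling, 0.06 with median-ratio size factors and 0.20 with library totals. Calls and fold changes are relative to 0 and were not corrected for that shift. Of the 37 members, 24 lay above 0.11. The counts given below for each group of genes are to be read beside these same shares.

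**Figure D1:**
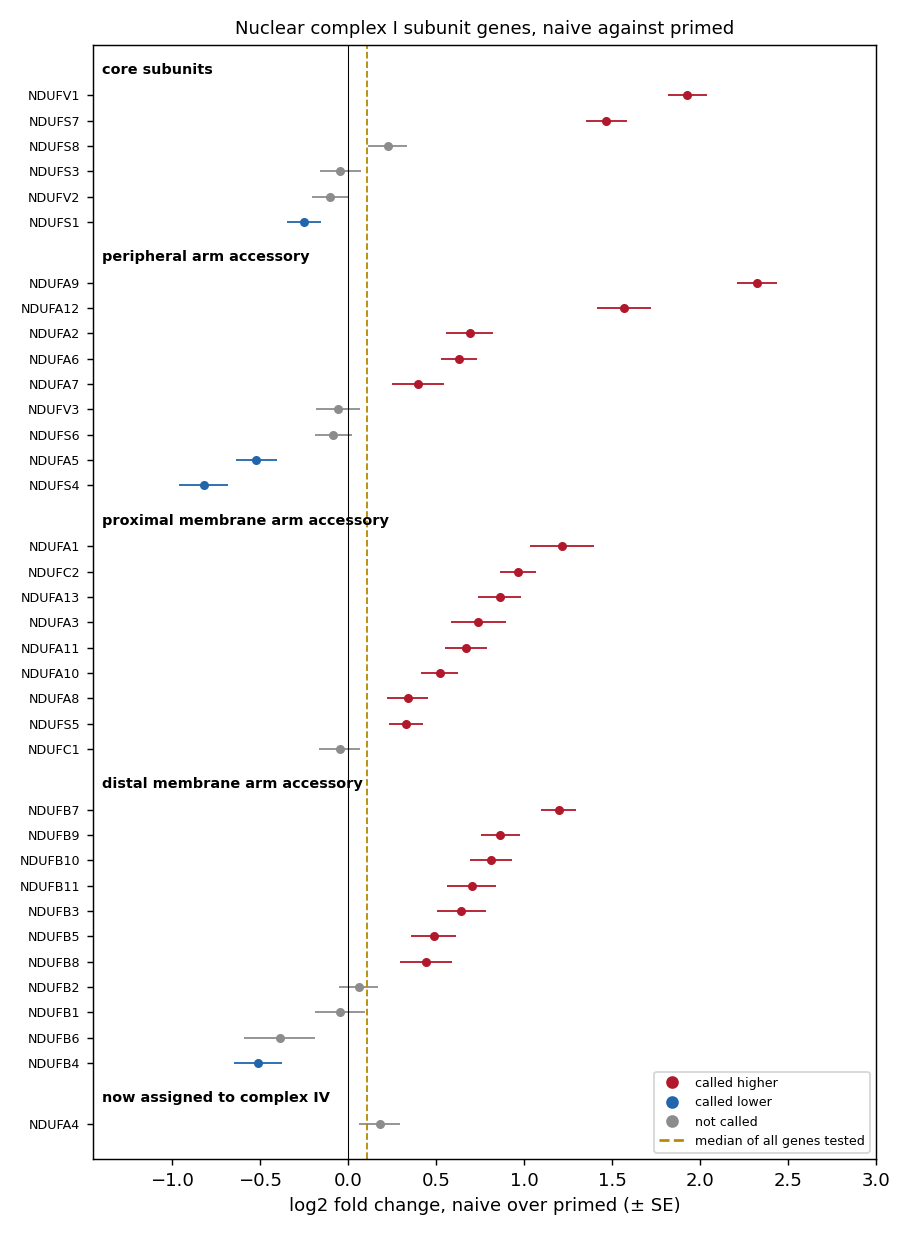
Fitted log2 fold change of the member genes reported by name, naive over primed, on the x axis, with bars of 1 SE, grouped by the place of the protein; colour gives the call and the dashed line the median of all genes tested (0.11). Core subunits split between 2 genes far to the right and the others near 0, while 8 of 9 proximal membrane arm genes sit to the right.

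The summed level of the 37 genes was 5069 CPM in VPA naive, 4531 in CA-p38 naive, 4859 and 4452 in the AICAR naive libraries, 3175 in EOS primed and 3202 in CA-p38 EOS primed. Every naive library was above both primed libraries. The mean was 4728 ± 288 CPM (SD, n = 4) in naive and 3188 ± 19.1 CPM (n = 2) in primed cells, a ratio of 1.48. As a share of all counts, the members took 0.461% to 0.513% in naive and 0.300% to 0.309% in primed libraries. In these bulk samples, more cells expressing a gene and more RNA per cell cannot be told apart.

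The nuclear core subunits moved unequally. Of 7, NDUFV1 and NDUFS7 rose, NDUFS1 fell and 4 were not called, and their median log2 fold change was -0.04. NDUFV1, NDUFV2 and NDUFS1 form the module that oxidises NADH, and NDUFS3, NDUFS7 and NDUFS8 belong to the module that hands electrons to ubiquinone. Each module held 1 gene with a large rise beside genes with small differences.

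NDUFV1 binds the flavin that takes electrons from NADH. Its gene lies at chr11:67605653-67612554 (GRCh38, plus strand). It was at 416, 395, 418 and 351 CPM in VPA, CA-p38, AICAR 1 and AICAR 2 naive cells and at 106 and 102 CPM in EOS and CA-p38 EOS primed cells. The groups were far apart, with log2 fold change 1.93 ± 0.11 (SE), or 3.80-fold, and edgeR adjusted p = 1.42e-08. NDUFV2, which carries an iron-sulfur cluster beside the flavin, was at 104, 93.7, 93.5 and 90.0 CPM in the same order of naive libraries and at 100 and 105 CPM in primed ones. The groups overlapped, and the log2 fold change was -0.10 ± 0.10 (edgeR adjusted p = 0.440). NDUFS1, which carries the next clusters of the chain, was at 111, 116, 104 and 114 CPM in naive cells and 129 and 135 CPM in the primed lines. All naive libraries were below both primed ones, with a small log2 fold change of -0.25 ± 0.10 (edgeR adjusted p = 0.0454, and up to 0.209 in the alternatives tried, so this call did not hold under 12 of 17).

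NDUFS7 holds the last iron-sulfur cluster before ubiquinone. Its gene lies at chr19:1383527-1395589 (plus strand). It was at 119, 134, 113 and 117 CPM in VPA, CA-p38, AICAR 1 and AICAR 2 naive cells and at 42.5 and 45.0 CPM in EOS and CA-p38 EOS primed cells. The groups did not overlap, and the log2 fold change was 1.47 ± 0.12, or 2.77-fold (edgeR adjusted p = 2.73e-07). NDUFS8, which carries a pair of clusters before that one, was at 89.5, 84.0, 78.1 and 76.0 CPM in naive cells and 69.9 and 70.3 CPM in the primed lines. Its groups did not overlap either, but the difference was small and not called (log2 fold change 0.22 ± 0.11, edgeR adjusted p = 0.104; called under library totals and limma-voom).

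NDUFS3, at the base of the arm, was at 74.8, 62.1, 71.0 and 60.9 CPM in naive cells and 68.0 and 70.6 CPM in the primed lines. The groups overlapped, with a log2 fold change of -0.04 ± 0.12 (edgeR adjusted p = 0.775).

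**Figure D2:**
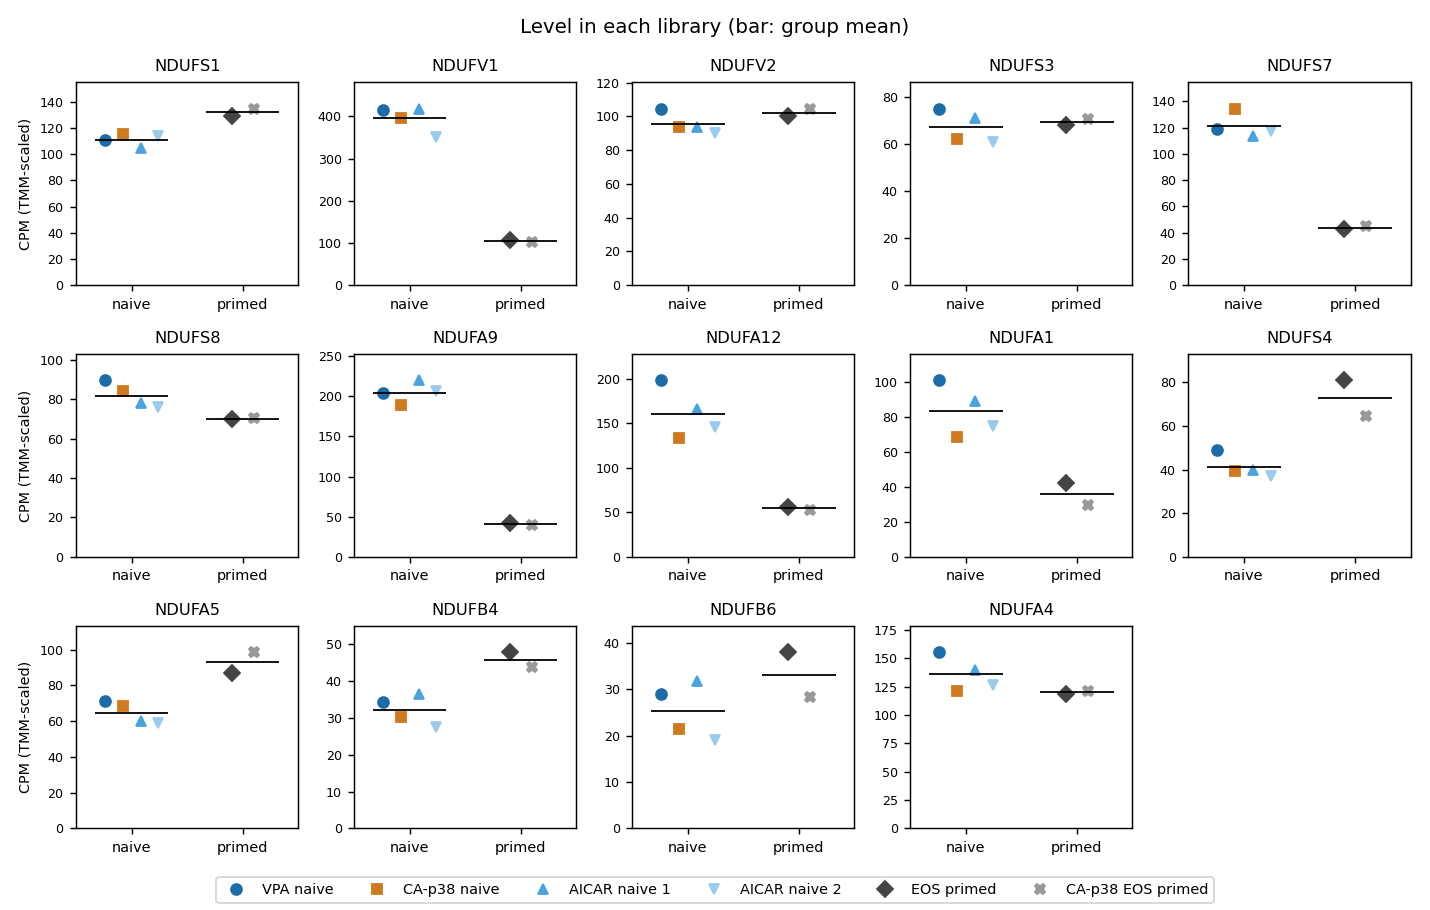
TMM-scaled CPM (y axis, from 0, with its own scale in each panel) of the core subunits described, the other 7 members with the highest or lowest fold changes, and NDUFA4, 1 point per library with a bar at the group mean. NDUFV1, NDUFS7, NDUFA9, NDUFA12 and NDUFA1 have all 4 naive points above both primed points, NDUFS4, NDUFA5 and NDUFB4 have all 4 below, and NDUFV2, NDUFS3 and NDUFB6 overlap.

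Accessory subunits of the peripheral arm held both ends of the range. Of 9 genes, NDUFA2, NDUFA6, NDUFA7, NDUFA9 and NDUFA12 rose, NDUFS4 and NDUFA5 fell, and NDUFS6 and NDUFV3 were not called. The median log2 fold change was 0.40 and the SD among the 9 was 0.997, beside an SD of 0.896 among the core subunits, 0.38 in the proximal membrane arm and 0.54 in the distal one. The call of NDUFA7 (log2 fold change 0.40) was lost in 9 of 17 alternatives.

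NDUFA9 is a nucleotide-binding subunit at the junction of the arms, beside the ubiquinone site. Its gene lies at chr12:4649095-4694317 (plus strand). It was at 204, 189, 220 and 206 CPM in VPA, CA-p38, AICAR 1 and AICAR 2 naive cells and at 41.8 and 39.9 CPM in EOS and CA-p38 EOS primed cells. This was the highest fold change of a member, 2.32 ± 0.11 on the log2 scale or 5.01-fold (edgeR adjusted p = 2.95e-09). A pair of readthrough transcripts that span NDUFA9 and a neighbour are counted as rows of their own, with 17.5% and 4.64% as many counts as NDUFA9. With those counts added the log2 fold change was 1.88. Readthrough rows also span NDUFA7, NDUFA11, NDUFA13, NDUFB8 and NDUFC2, with 20.3% to 66.8% as many counts as the member, and adding them changed no member's call.

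NDUFA12, an accessory subunit of the peripheral arm and a paralog of the assembly factor NDUFAF2, was at 198, 134, 166 and 146 CPM in naive cells and 56.3 and 52.4 CPM in the primed lines. All naive libraries were above both primed ones, and the naive spread was among the wider ones of the members (coefficient of variation 17.4%, against a median of 9.5%). The log2 fold change was 1.57 ± 0.15, or 2.96-fold (edgeR adjusted p = 2.09e-06).

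NDUFS4, an accessory subunit of the matrix arm whose loss causes Leigh syndrome, had the lowest fold change. It was at 48.9, 39.3, 39.8 and 36.9 CPM in VPA, CA-p38, AICAR 1 and AICAR 2 naive cells and at 80.8 and 64.6 CPM in EOS and CA-p38 EOS primed cells. All naive libraries were below both primed ones, with a log2 fold change of -0.82 ± 0.14 (edgeR adjusted p = 0.000257). NDUFA5, another subunit of this arm, was at 71.2, 68.6, 60.0 and 58.9 CPM in naive cells and 87.0 and 98.5 CPM in the primed lines. It too did not overlap between groups (log2 fold change -0.52 ± 0.12, edgeR adjusted p = 0.00226).

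The proximal membrane arm genes were the most even group. Of 9, 8 rose and NDUFC1 (log2 fold change -0.05) was not called, and the median log2 fold change was 0.67. Among genes at like levels 30.6% were called higher. The naive libraries were above both primed libraries in 8 of 9, and in 32.9% of all genes tested. NDUFA1, a small membrane subunit encoded on the X chromosome, was at 101, 68.6, 89.5 and 75.1 CPM in naive cells and 42.2 and 29.8 CPM in the primed lines. It differed between the naive libraries more than most members and also between the primed lines, yet the groups did not overlap (log2 fold change 1.22 ± 0.18, or 2.32-fold, edgeR adjusted p = 8.86e-05). NDUFC2 had the smallest naive spread of all 37 genes, with 112, 111, 114 and 112 CPM in naive and 57.6 CPM in both primed libraries, and rose by 0.96 ± 0.10 on the log2 scale. NDUFA13 (log2 fold change 0.86), NDUFA3 (0.74), NDUFA11 (0.67), NDUFA10 (0.52), NDUFA8 (0.34) and NDUFS5 (0.33) completed the group. Counts of NDUFA3 were split over 10 identifiers of alternate assembly sequences and were summed here. NDUFA8 lost its call in 7 of 17 alternatives and NDUFS5 in 2.

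The distal membrane arm genes rose in 7 of 11 cases, with NDUFB4 lower and NDUFB1, NDUFB2 and NDUFB6 not called, and a median log2 fold change of 0.49. NDUFB7, on the intermembrane face of the arm, led with 271, 262, 293 and 272 CPM in naive cells and 115 and 125 CPM in the primed lines. Its log2 fold change was 1.2 ± 0.10, or 2.29-fold (edgeR adjusted p = 5.04e-07). NDUFB9 (0.86), NDUFB10 (0.81), NDUFB11 (0.70), NDUFB3 (0.64), NDUFB5 (0.49) and NDUFB8 (0.44) followed by log2 fold change. NDUFB11, like NDUFA1, is encoded on the X chromosome. In AICAR naive cells of another line, the study reports both X chromosomes active in some cells. The part of this in the values of NDUFA1 and NDUFB11 was not tested. NDUFB8 was not called without AICAR naive 1 (edgeR adjusted p = 0.0702) or without CA-p38 EOS primed (log2 fold change 0.21, adjusted p = 0.296), and was at 0.71 without EOS primed. NDUFB5 was not called without EOS primed (edgeR adjusted p = 0.0867).

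NDUFB4, a membrane subunit of this arm, was at 34.4, 30.2, 36.6 and 27.4 CPM in naive cells and 47.9 and 43.8 CPM in the primed lines. All naive libraries were lower (log2 fold change -0.51 ± 0.14, edgeR adjusted p = 0.00721), and without the EOS primed library the adjusted p was 0.0615. NDUFB6, another, was at 29, 21.4, 31.8 and 19.1 CPM in naive cells and 38 and 28.3 CPM in the primed lines. It had the widest naive spread of all members (coefficient of variation 23.9%), the groups overlapped, and its log2 fold change of -0.39 ± 0.20 was not called (edgeR adjusted p = 0.126).

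NDUFA4, the complex IV subunit, was at 156, 122, 140 and 127 CPM in naive cells and 119 and 121 CPM in the primed lines. The lowest naive value, in CA-p38 cells, lay just above the higher primed one, and the log2 fold change of 0.18 ± 0.12 was not called (edgeR adjusted p = 0.214; called under library totals and limma-voom). Leaving it out of the sum changed the ratio from 1.48 to 1.5.

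Counted by overlap, 24 members had every naive library above both primed ones and 5 had every naive library below them. The same held for 32.9% and 32.1% of all genes tested. Among members not called, NDUFA4 and NDUFS8 were without overlap upward.

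The 4 naive libraries shared the members at the extremes. Each naive library was set against the primed library of its own line, so the VPA and AICAR ratios share 1 control. NDUFA9 had the highest and NDUFS4 the lowest log2 ratio in all 4: 2.28 and -0.73 in VPA, 2.24 and -0.72 in CA-p38, 2.39 and -1.02 in AICAR 1, and 2.30 and -1.13 in AICAR 2. The members' median log2 ratio was 0.50, 0.46, 0.47 and 0.30 in that order, beside 0.05, 0.04, 0.03 and 0.03 for all genes tested (with 0.5 CPM added for the latter). Members above their primed line numbered 29 in VPA, 24 in CA-p38, 26 in AICAR 1 and 25 in AICAR 2, of 37 each.

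**Figure D3:**
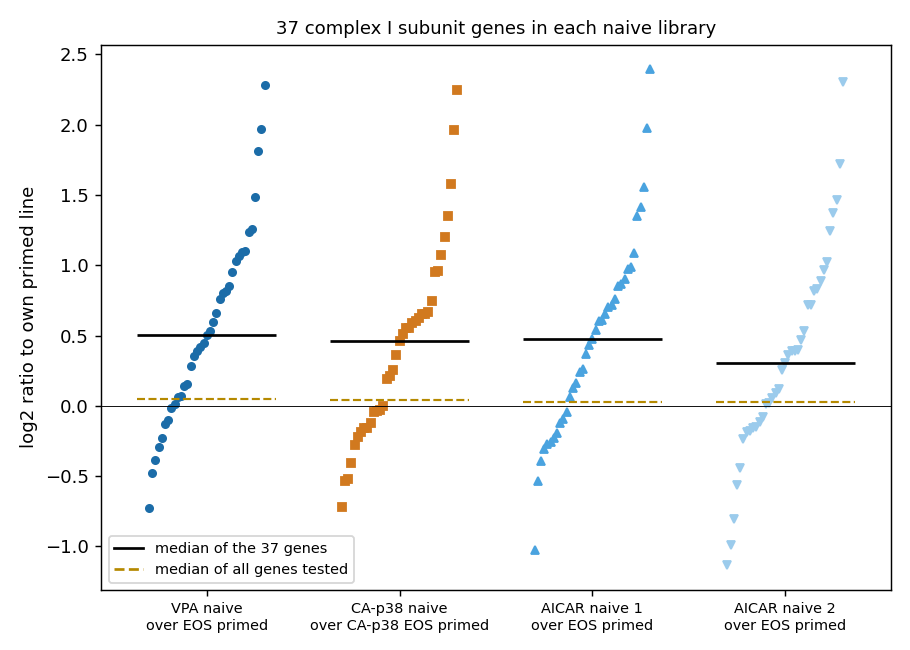
Log2 ratio (y axis) of each of the 37 genes in each naive library to the primed library of its own line, sorted within each library; the solid bar is the members' median and the dashed bar that of all genes tested. The 4 distributions span like ranges, with members' medians of 0.30 to 0.50 and all-gene medians of 0.03 to 0.05.

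Within the naive group, VPA cells had the highest level for 23 of the 37 genes and the lowest for 0, and AICAR 2 had the lowest for 19. The like counts over all genes were not made, so this order is not shown to be particular to the members. Which library was lowest depends on scaling, and AICAR 2 had the highest TMM factor (1.06). As a share of all counts, the members were lowest in CA-p38 naive (0.461%), below AICAR 2 (0.472%). With 1 library of VPA cells, their place as highest has no replicate check. The 2 primed lines were alike in their median (ratio of CA-p38 EOS to EOS 0.999), with a range from 0.698 (NDUFB8) to 1.34 (NDUFB10).

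Whether the change from primed to naive differed between the EOS and CA-p38 EOS lines was tested by the interaction of line and state, with 2 residual degrees of freedom. All of the spread in this fit came from the 3 naive libraries of the EOS line, which mix VPA and AICAR, since the other combinations of line and state hold 1 library each. Line and method of induction cannot be told apart, because only CA-p38 was used in the CA-p38 EOS line. No member was called by edgeR, and 1 of 37, NDUFB11, had an unadjusted p under 0.05, with an edgeR adjusted p = 1.0, beside 3.22% of all genes tested at that unadjusted threshold. Its interaction was -0.57 ± 0.25 on the log2 scale: the log2 ratio was 0.37 in CA-p38 cells and 0.82 to 1.10 in the naive libraries of the EOS line. Of all 26497 genes 1 (0.00377%) was called at an adjusted p under 0.05.

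The remaining parts of complex I were described from lists of genes that are not members. NDUFAB1, the mitochondrial acyl carrier protein and a subunit in its own right, was at 650, 602, 624 and 636 CPM in naive cells and 117 and 151 CPM in the primed lines. Its log2 fold change of 2.23 ± 0.12 (edgeR adjusted p = 7.57e-09) was near that of NDUFA9. NDUFA4L2, a paralog of NDUFA4, was at most 1.09 CPM in any library.

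The 7 mitochondrially encoded core subunits, which build the pumping membrane arm, rose in 5 cases, fell in 1 and were not called in 1. MT-ND1, which lies next to the ubiquinone site, was at 2275, 2023, 2451 and 1951 CPM in VPA, CA-p38, AICAR 1 and AICAR 2 naive cells and at 1590 and 1130 CPM in EOS and CA-p38 EOS primed cells (log2 fold change 0.68). MT-ND2 was at 2369, 1997, 2276 and 2053 CPM in naive cells and 1522 and 1556 CPM in the primed lines (0.50). These 2 did not overlap between groups.

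MT-ND4 was at 5858, 6141, 5678 and 5149 CPM in naive cells and 4789 and 2586 CPM in the primed lines (log2 fold change 0.63). MT-ND4L was at 663, 792, 764 and 670 CPM in naive cells and 645 and 340 CPM in the primed lines (0.55). MT-ND6, encoded on the other strand, was at 603, 663, 514 and 548 CPM in naive cells and 530 and 356 CPM in the primed lines (0.39). The call of MT-ND6, whose groups overlapped, held in 10 of 17 alternatives and that of MT-ND4L in 14. The choice of primed library moved MT-ND4, MT-ND4L and MT-ND6: without EOS primed the log2 fold changes were 1.13, 1.07 and 0.70, and without CA-p38 EOS primed they were 0.26, 0.17 and 0.14 and none of these 3 was called. In all 3 the CA-p38 EOS primed library was far below the EOS primed library, which lay within or just under the naive range.

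MT-ND5 was at 1522, 1829, 1642 and 1616 CPM in naive cells and 1726 and 1145 CPM in the primed lines, and was not called (log2 fold change 0.20, edgeR adjusted p = 0.239; -0.056 without CA-p38 EOS primed). MT-ND3 went the other way, at 181, 93.5, 123 and 91.3 CPM in naive cells and 217 and 181 CPM in the primed lines (-0.70, edgeR adjusted p = 0.0165, and 0.117 without EOS primed). Summed, these genes took 1.28% to 1.38% of counts in naive libraries, 1.07% in EOS primed and 0.682% in CA-p38 EOS primed. The primed lines were thus alike for the nuclear members' sum and unlike for the mitochondrial genes' sum, though MT-ND2 alone was at like levels in both. RNA was selected by poly(A), and the part of that step in the mitochondrial values was not tested.

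Assembly factors, which build the complex and are not part of it, showed no common direction. Neither did all genes tested, of which 26% were called higher and 27% lower. Of 17, NDUFAF7, TMEM186 and FOXRED1 rose, NDUFAF2, COA1 and TMEM126B fell, and 11 were not called, with a median log2 fold change of -0.02. NDUFAF7, a methyltransferase, was at 108 ± 7.29 CPM (SD, n = 4) in naive and 45.9 ± 1.85 CPM (n = 2) in primed cells, which is 1.23 as log2 fold change. TMEM186 (0.46) and FOXRED1 (0.36) were the next highest. NDUFAF2, the paralog of NDUFA12, was at 21.2 ± 0.788 CPM in naive and 40.8 ± 1.76 CPM in primed cells, which is -0.94 as log2 fold change, so the 2 paralogs moved in opposite directions. COA1 (-0.74) and TMEM126B (-0.49) were the other lowest. The call of TMEM186 was lost in 7 of 17 alternatives and those of FOXRED1 and TMEM126B in 2 each.

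**Figure D4:**
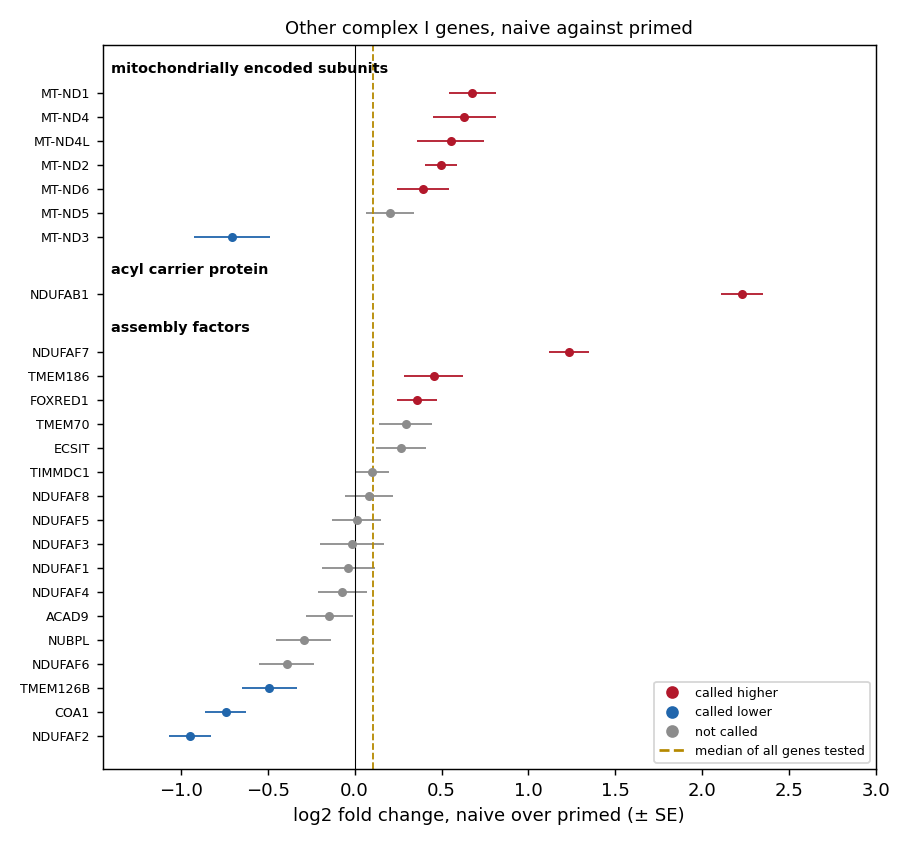
Fitted log2 fold change, naive over primed, with bars of 1 SE, for complex I genes outside the 37: mitochondrially encoded subunits, NDUFAB1 and 17 assembly factors, coloured by call, with the median of all genes tested as a dashed line. NDUFAB1 stands far to the right at 2.23, MT-ND3 is the only mitochondrial gene to the left of 0, and the assembly factors spread from -0.94 to 1.23.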

How the data were processed

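Bulk poly(A) RNA-seq of 6 libraries was used. The authors deposited whole numbers per Ensembl gene identifier, which were taken here to be raw counts. Per the labels and methods, reads were trimmed with Trim Galore 0.4.4 and cutadapt 1.15. They were mapped with Bowtie2 to human cDNA and noncoding RNA sequences (GRCh38) and summed per gene. For the study's own libraries the methods also name alignment to GRCh38.p13 and RPKM values from RSEM. The values used here were taken to come from the Bowtie2 route. Whether strand was used is not given in the sources used here, so overlapping genes may share reads. Columns of other studies (23) were not used, and 26 spike-in features were left out. Counts of identifiers sharing a symbol were summed. Mapping to transcripts can split reads between identifiers, pseudogenes (53 listed for 17 members) and readthrough genes. All genes were fitted with edgeR 4.0.16 (R 4.3.3; TMM, filterByExpr, quasi-likelihood test, 4 naive against 2 primed, no covariate), with Benjamini-Hochberg adjustment and a threshold of 0.05. CPM values are TMM-scaled. Gene positions are from GENCODE 44 on GRCh38.

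The AICAR libraries differed by a chi-square per gene of 24.0, within the 22.6 to 41.6 of the other naive pairs, and counted as separate samples, as the labels list them. The study gives consecutive passages for its AICAR cells, so these 2 may come from 1 culture, which this value cannot show; with their counts summed, 25 members were called (22 higher, 3 lower). Alternatives used DESeq2 1.42.0 and limma 3.58.1, other scalings and filters, the parental line as block, other ways of counting a gene, and leaving out each library. The fits were also run on simulated libraries, drawn independently with the same dispersion for all genes, which says nothing about libraries from 1 culture. The members and lists were chosen with earlier results of these data known. Members are named with all library values for core subunits, the 5 highest and 5 lowest fold changes and NDUFA4; values of NDUFB7 and NDUFC2 were added after they were seen. One member is counted but not reported by name here.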

Additional observations from a re-analysis of the deposited data

Results flagged for a closer look

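NDUFB2, a small subunit of the distal membrane arm, was flagged because it moved in opposite directions in the parental lines: its log2 ratio to the own primed line was -0.045 in CA-p38 naive cells and 0.011 to 0.12 in the 3 naive libraries of the EOS line. The difference was small, and the interaction of line and state was -0.11 on the log2 scale (edgeR adjusted p = 1.0). No naive library stood apart from the other 3 for any of the 37 members by Dixon's test at the 95% level.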

How the results depend on the processing

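Of 17 alternatives, all left between 20 and 27 of the 37 members called, between 18 and 24 of them higher. Members called lower numbered 2 to 5, and 2 to 4 with a library left out; the count of 2 came without the EOS primed library, when NDUFB4 and NDUFS1 lost their calls. With 1 primed library left, it is assumed to vary like the naive ones. The ratio of summed levels was 1.59 with library totals and 1.43 to 1.52 with a library left out. Of 629 member values under alternatives 570 kept direction and call, and 21 members did so throughout (17 higher, 2 lower, 2 not called). The parental line as block gave 24 members called, 21 higher and 3 lower. A call was lost in 34 values, most often for NDUFS1, NDUFA7 and NDUFA8, and gained in 11. The rest, 14 values of 5 uncalled members near 0, changed direction. Under library totals the log2 fold changes of NDUFB1, NDUFC1, NDUFS3, NDUFS6 and NDUFV3 were 0.0501, 0.0510, 0.0536, 0.0129 and 0.0414, and under limma-voom 0.0506, 0.0543, 0.0514, 0.0141 and 0.0349. With a library left out, NDUFB1 ran from -0.163 to 0.0752 (above 0 without EOS primed and, at 0.0101, without CA-p38 naive), NDUFC1 from -0.130 to 0.0367 (above 0 without EOS primed) and NDUFS3 from -0.115 to 0.00399 (above 0 without AICAR naive 2); the cause was not tested. The interaction had 0 members called under each of its alternatives. Counting depth was not limiting for members, with at least 950 counts each.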
